A study of Homo sapiens with 42 samples.

Results

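A list of 40 interferon-stimulated genes and interferon-induced chemokines was followed across 42 Affymetrix U133 Plus 2 arrays of the human multiple myeloma line RPMI-8226. The genes were taken by name as well-known targets of interferon signalling. Of the 40, 39 had a probe set annotated to that symbol alone, and each was represented by its brightest one. STAT2 was not analysed here. The signals of 34 genes were bright enough to be tested, among 14704 genes tested in all. The other 5, IFI44L, RSAD2, DDX60, CMPK2 and USP18, averaged signals of 2.61 to 8 and never reached the median of an array.

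The groups were the following, with 3 arrays each. Cells stably infected with an inducible shRNA against BMI1 (the BMI1-shRNA line) received doxycycline at 100 ng/ml for 24, 32 or 48 h, or were kept without it for 0, 24, 32 or 48 h. Cells stably infected with an inducible control shRNA (the control-shRNA line) were sampled in the same 7 groups. BMI1 is a subunit of a Polycomb repressive complex, and doxycycline switches on the hairpin. All groups share the RPMI-8226 background, the viral infection and a medium with 1% serum. The labels do not say whether either line was a clone or a pool, nor whether the 3 arrays of a group came from separate cultures, so p-values measure the spread between these arrays, which may be technical. The BMI1-shRNA arrays at 0 h carry conflicting labels. Their titles name that line without doxycycline, their characteristics list the drug, and their source names point to the other line. They were grouped by title, and each result that rests on them is named as such.

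Interferons are secreted proteins that bind receptors on the cell surface and activate JAK kinases and STAT factors. Type I interferons act mainly through a complex that contains IRF9 and binds the interferon-stimulated response element (ISRE), whereas interferon gamma acts mainly at gamma-activated sites (GAS). Many of the induced genes block viral RNA or viral entry, and short double stranded RNA can itself trigger the response, so the question was whether the hairpin raised these genes.

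The promoters of the genes on which the results turn are given because the ISRE core links the list to its known regulators. The windows run from 250 bases before to 50 bases after the start in RefSeq (GRCh38.p14), are written 5′ to 3′ on the strand of the gene, and have each ISRE core in capitals. The ISRE core searched was GAAANNGAAA on both strands, and the GAS core was TTCNNNGAA, which reads the same on both strands.
IFIT1 (chr10:89392373-89392672, plus strand): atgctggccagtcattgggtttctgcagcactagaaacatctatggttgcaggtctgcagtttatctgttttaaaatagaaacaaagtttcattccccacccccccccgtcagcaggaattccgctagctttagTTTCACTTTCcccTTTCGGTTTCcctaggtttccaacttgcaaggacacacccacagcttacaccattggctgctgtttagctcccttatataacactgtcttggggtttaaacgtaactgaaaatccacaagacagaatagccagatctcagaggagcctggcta
IFITM1 (chr11:313790-314089, plus strand): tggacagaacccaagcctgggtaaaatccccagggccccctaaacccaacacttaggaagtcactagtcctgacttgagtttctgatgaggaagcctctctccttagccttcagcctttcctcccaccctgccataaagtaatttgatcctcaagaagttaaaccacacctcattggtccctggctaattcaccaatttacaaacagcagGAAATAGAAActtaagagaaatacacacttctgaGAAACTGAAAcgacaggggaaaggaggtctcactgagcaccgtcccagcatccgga
CXCL9 (chr4:76007460-76007759, minus strand): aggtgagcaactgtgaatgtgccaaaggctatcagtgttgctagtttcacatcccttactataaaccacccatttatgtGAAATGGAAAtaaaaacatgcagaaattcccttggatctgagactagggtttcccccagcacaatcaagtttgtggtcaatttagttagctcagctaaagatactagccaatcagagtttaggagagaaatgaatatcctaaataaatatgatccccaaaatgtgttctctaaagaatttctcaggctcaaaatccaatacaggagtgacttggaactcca
CXCL10 (chr4:76023448-76023747, minus strand): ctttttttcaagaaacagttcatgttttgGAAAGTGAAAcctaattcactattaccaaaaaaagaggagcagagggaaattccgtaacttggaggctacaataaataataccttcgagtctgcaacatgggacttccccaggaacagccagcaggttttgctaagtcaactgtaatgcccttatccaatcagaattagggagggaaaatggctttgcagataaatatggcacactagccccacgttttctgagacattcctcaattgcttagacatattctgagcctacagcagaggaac
SAMD9L (chr7:93148336-93148635, minus strand): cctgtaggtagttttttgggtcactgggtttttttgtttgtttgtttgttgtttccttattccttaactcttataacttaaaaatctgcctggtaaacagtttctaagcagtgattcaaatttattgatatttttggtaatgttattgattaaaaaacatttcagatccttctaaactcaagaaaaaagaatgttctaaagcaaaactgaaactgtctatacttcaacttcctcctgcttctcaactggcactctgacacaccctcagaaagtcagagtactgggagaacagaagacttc
The IFIT1 window holds an adjoining pair of ISRE cores on the opposite strand, from 116 to 107 and from 103 to 94 bases before the start. The IFITM1 window holds one from 40 to 31 bases before the start and one that crosses the start. CXCL9 has a match from 171 to 162 and CXCL10 from 221 to 212 bases before the start, and these letters are not in the SAMD9L window. A match describes the letters and shows neither binding nor activity.

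RefSeq promoter windows were matched by symbol for 33 of the 40 genes, 43 windows in all. An ISRE core lay in a window of 23 of the 33 genes (69.7%), and in 27 of the 43 windows (62.8%), against 3.57% of all 35116 windows. A GAS core lay in 9 of the 33 genes (27.3%), and in 10 of the 43 windows (23.3%), against 7.66% of all windows. The cores overlapped each other in 4 genes, BST2, IFI27, IFITM1 and MX1. Windows with at least 2 ISRE cores belonged to IFIT1, IFIT3, IFIT5, IFI6, IFI27, IFI44L, IFIH1, IFITM1, ISG15, OAS3, HERC5, DDX60 and BST2.

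**Figure D1:**
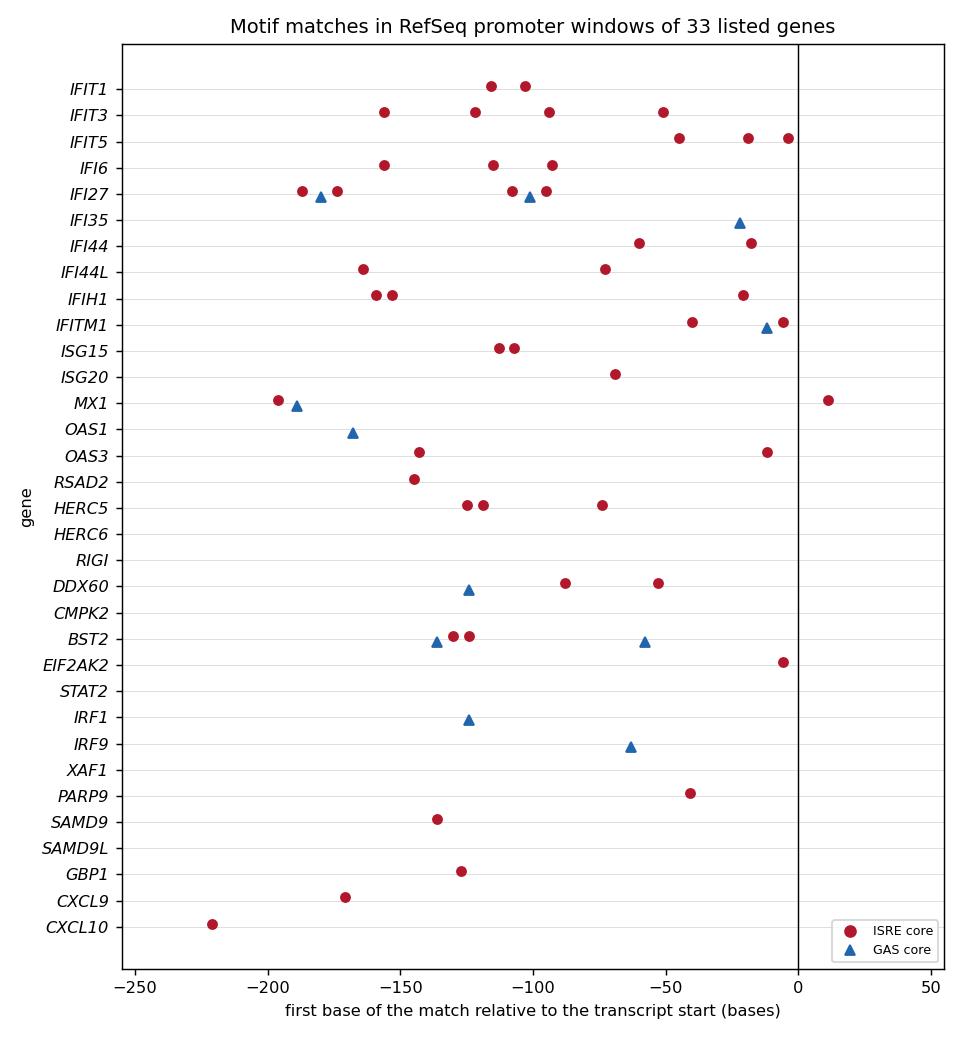
Positions of ISRE cores (circles) and GAS cores (triangles) in the RefSeq promoter windows of 33 listed genes; the horizontal axis is the distance of a match's first base from the transcript start in bases, and each row is a gene. ISRE cores appear in 23 rows and lie mostly upstream of the start, while GAS cores appear in 9 rows.

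Signals are linear array units scaled to a common mean, and each test was made with limma on log2(signal + 5.4), so the fold changes of dim genes are understated. Genes count as called where the p-value, adjusted over all 14704 genes by the Benjamini-Hochberg method, was under 0.05. BMI1, read by a probe set shared with the readthrough COMMD3-BMI1, averaged 159 to 207 in the 3 dosed groups of the BMI1-shRNA line and 927 to 1032 in its undosed groups, against 1159 to 1332 in the 7 groups of the control-shRNA line. The 0 h arrays with conflicting labels averaged 1032 for BMI1. Plasma cell genes were bright on all arrays, with TNFRSF17 at 965 to 1966 and XBP1 at 1854 to 2764, and SLAMF7 was never at an array's median. Markers of T and NK cells, monocytes and fibroblasts had summed signals of 15.5 to 201 on all arrays, with CD14, LYZ and NKG7 never at an array's median. The fibroblast gene COL1A1 was at or above it on all 21 arrays of each line, at 82.6 to 144.4. CSF1R reached it on 20 arrays of the BMI1-shRNA line and 10 of the control-shRNA line. CD3E, CD3D, CD2, CLEC4C, COL1A2 and DCN reached it on some arrays. The lowest correlation between arrays of a group was 0.979. Arrays have no read depth, and 3 per group limit the precision.

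Most of the tested genes gave signals at or above the array's median, which is not a test of detection. A total of 23 of the 34 tested genes read at or above the array's median on all 42 arrays, and 12 had mean signals under 50. BST2, the tethering protein that holds budding virus at the membrane, had the highest mean signal of the list over the 42 arrays, with 1383 ± 111 in the BMI1-shRNA line and 1426 ± 119 in the control-shRNA line (SD, n = 21 each). In the control-shRNA line alone IFITM1 was brighter. Signals of different probe sets do not rank the amounts of their RNAs. The map of group means shows the list by line, dose and time.

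**Figure D2:**
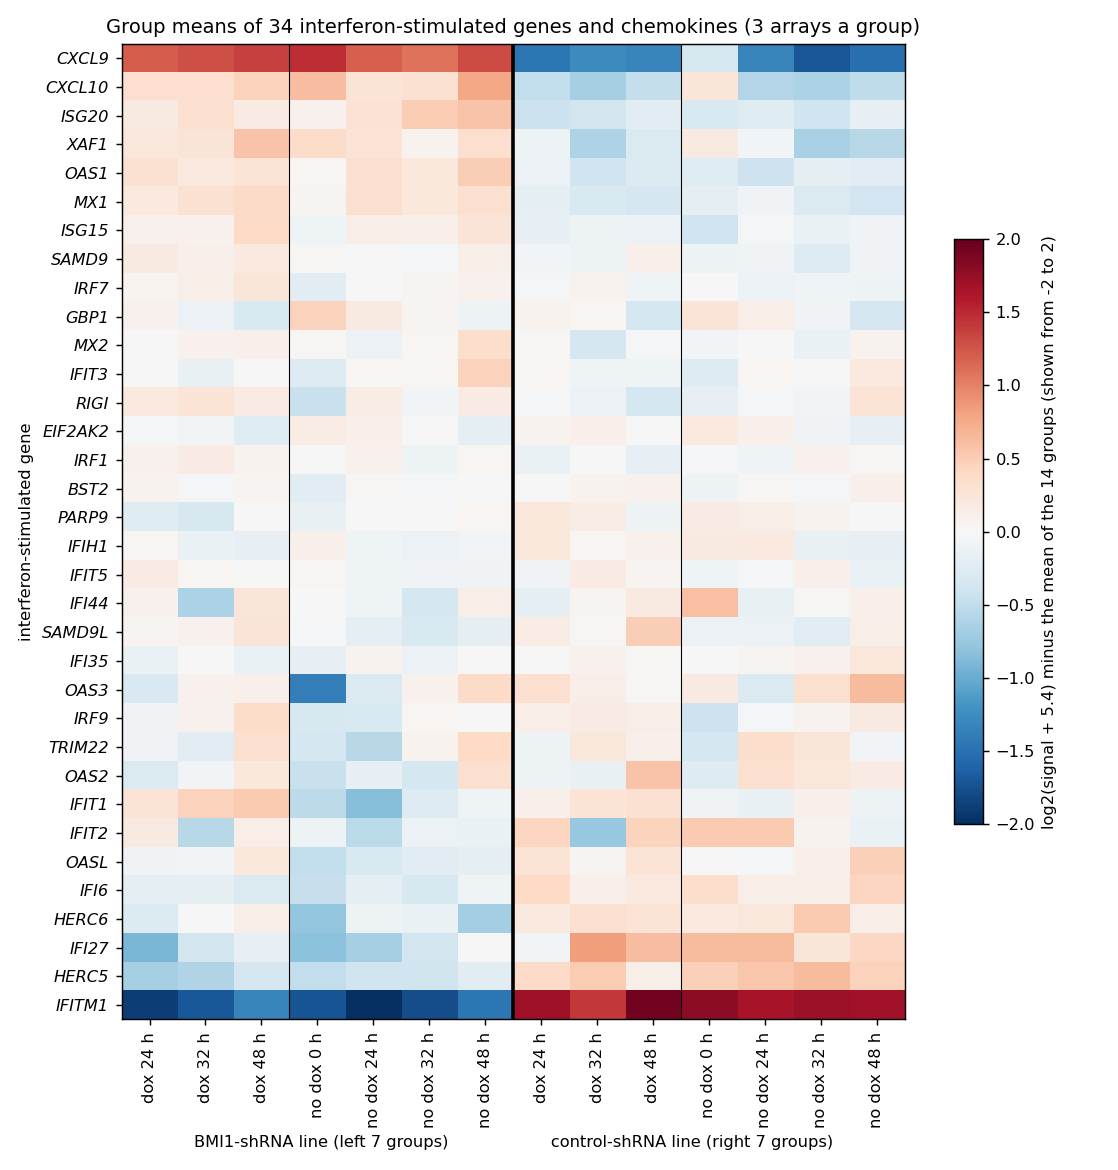
Group means of the 34 tested genes (rows, ordered by the line difference) in the 14 groups (columns; 7 of the BMI1-shRNA line left of 7 of the control-shRNA line), as log2(signal + 5.4) minus the mean of the gene's 14 groups, with colours limited to the range from -2 to 2. CXCL9 and CXCL10 at the top and IFITM1 at the bottom separate the lines, whereas dosed and undosed columns of a line look alike for most genes.

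Induction of the BMI1 hairpin was not accompanied by a general rise of interferon-stimulated genes. Over the mean of 24, 32 and 48 h, 3 of the 34 genes were called between dosed and undosed arrays of the BMI1-shRNA line, 2 higher and 1 lower. That share, 8.82%, lies beside 8.3% of all genes called in the same comparison. The median log2 fold change of the list was 0.03 and that of all genes 0.02. The 2 higher genes were IFIT1 and SAMD9L and the lower one was ISG20.

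IFIT1, which binds viral RNA that lacks the host's cap methylation, had signals of 64.5, 67.2 and 70.3 at 24 h, 83.5, 71.8 and 76.3 at 32 h and 85.4, 79.7 and 77.9 at 48 h in dosed BMI1-shRNA cells. Undosed cells of that line had 48.3, 7.4 and 49.1 at 24 h, 48.8, 43.4 and 43.7 at 32 h and 47.6, 47.8 and 58.6 at 48 h. All 9 dosed arrays lay above all 9 undosed arrays, and a single undosed array at 24 h, at 7.4, stood far below the rest. IFIT1 rose with doxycycline by log2 0.81 ± 0.17 (SE), a 1.75-fold change, with a limma adjusted p of 0.000858, and by 0.58 with an adjusted p of 0.000286 when that array was left out. At 24 h alone IFIT1 was the 1 gene of the list that was called (log2 1.12 ± 0.29, limma adjusted p = 0.0366), with 1.61% of all genes called, and without the low array the 24 h difference was 0.43 with an adjusted p of 0.508. The 24 h call was also lost without any one of the 3 dosed arrays (adjusted p of 0.0936 to 0.121).

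In the control-shRNA line IFIT1 had 54.5, 66.2 and 80.3 as the lowest, median and highest of the 9 dosed arrays and 36.7, 57.3 and 66.7 in the 9 undosed arrays. These ranges overlapped, and the difference of log2 0.27 ± 0.17 was not called (limma adjusted p = 0.871). The doxycycline effect on IFIT1 in the BMI1-shRNA line minus that in the control-shRNA line was 0.54 ± 0.24, with an adjusted p of 0.281. A larger effect on IFIT1 in the line with the BMI1 hairpin was therefore not shown by this test. Over all genes 3.77% were called for that difference, and none of the 34 genes was. At an unadjusted limma p under 0.05 there were 2 of the 34, beside 13.5% of all genes.

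SAMD9L, which restricts poxviruses and slows cell growth, rose with doxycycline in both lines. Both lines carry an inducible hairpin and no dosed group lacked one. For a gene that changed in both lines, the drug and the expression of a hairpin therefore cannot be told apart. Dosed BMI1-shRNA cells had 236.2, 260.4 and 243 at 24 h, 269.5, 233.3 and 259.4 at 32 h and 302.4, 286.7 and 264.5 at 48 h. Undosed cells of that line had 202.7, 217.2 and 210 at 24 h, 191.6, 198.1 and 183.4 at 32 h and 198.4, 221.1 and 212.6 at 48 h. Every dosed array lay above every undosed array of the line. The difference was log2 0.35 ± 0.04, or 1.27-fold, with a limma adjusted p of 8.49e-08. The same comparison called SAMD9L as the 1 gene of the list at 32 h (2.2% of all genes called) and, with CXCL10, as 1 of 2 genes at 48 h (5.35% of all genes called).

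In the control-shRNA line SAMD9L had 248.4, 258.4 and 285.6 at 24 h, 223.7, 253.9 and 249.5 at 32 h and 317.4, 348.2 and 342.4 at 48 h with doxycycline. Without it the signals were 219.9, 219.9 and 215.5 at 24 h, 189.7, 205 and 213.3 at 32 h and 246.6, 261.2 and 268 at 48 h. At each time every dosed array lay above every undosed one. SAMD9L was the 1 gene of the list called over the 3 times in this line (log2 0.30 ± 0.04, limma adjusted p = 5.68e-05), where 0.129% of all genes were called. At 48 h alone it was again the 1 gene called (log2 0.37 ± 0.07, adjusted p = 0.0352), with 0.0476% of all genes called, and that call was lost without any one array other than dosed replicate 1 (adjusted p of 0.0814 to 0.26). For SAMD9L the effect in the BMI1-shRNA line minus that in the control-shRNA line was 0.05 ± 0.06 (adjusted p = 0.785), with a 95% interval from -0.07 to 0.18. The neighbouring gene SAMD9 had differences of 0.13 ± 0.05 in the BMI1-shRNA line and 0.11 ± 0.05 in the control-shRNA line, and neither was called.

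ISG20, an exonuclease that degrades viral RNA, had 106.8, 134 and 158.8 as the lowest, median and highest of the 9 dosed BMI1-shRNA arrays and 123.7, 160.3 and 174 in the 9 undosed arrays. The ranges overlapped. It fell by 0.23 ± 0.07 on the log2 scale (limma adjusted p = 0.0434), and this call was lost without any one of 10 of the 18 arrays (adjusted p of 0.0527 to 0.124). The 10 were dosed replicates 1 at 24 h, 1 and 2 at 32 h and 3 at 48 h, and undosed replicates 1 and 3 at 24 h, 1 and 3 at 32 h and 1 and 2 at 48 h. The ISG20 call was also lost with no filter, with its probe sets averaged, with a replicate block and with only the groups of the comparison fitted. In the control-shRNA line ISG20 had 76.9, 82.3 and 102 in dosed and 70.1, 95.3 and 104.9 in undosed arrays, and the difference of -0.08 ± 0.07 was not called.

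CXCL10, a chemokine that draws activated T cells through the receptor CXCR3, was lower with doxycycline at 48 h in the BMI1-shRNA line. Signals were 351.7, 417.7 and 371.3 in dosed cells and 457.1, 472.2 and 487 in undosed cells. The groups did not overlap, and CXCL10 fell by 0.31 ± 0.08 on the log2 scale (limma adjusted p = 0.0137), a call lost without undosed replicate 3 or dosed replicate 1 or 3 (adjusted p of 0.0599 to 0.112). Over the mean of 3 times its difference was -0.07 ± 0.05 and was not called. The doxycycline effect on CXCL10 at 48 h was also compared between the lines. That difference was not called, with 2.54% of all genes called. A fall of CXCL10 particular to the line with the BMI1 hairpin was therefore not shown. CXCL9, a chemokine for the same receptor, differed by 0.10 ± 0.06 and was not called.

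**Figure D3:**
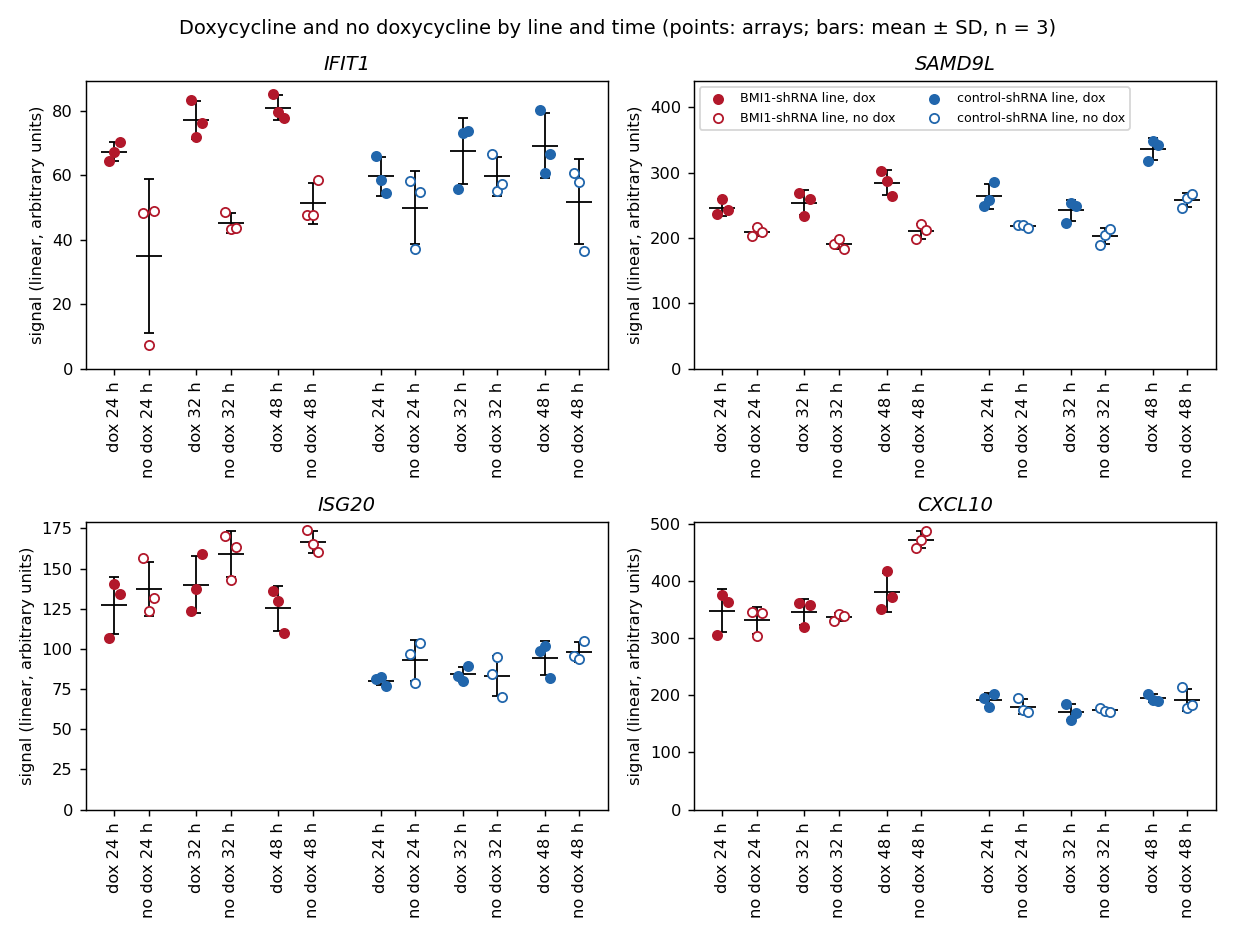
Signals of IFIT1, SAMD9L, ISG20 and CXCL10 on each array, dosed (filled) beside undosed (open) at 24, 32 and 48 h, BMI1-shRNA line left of the control-shRNA line; bars are the mean ± SD of 3 arrays and the vertical axes start at 0. IFIT1 lies between 64.5 and 85.4 in dosed BMI1-shRNA cells, above the undosed range of 7.4 to 58.6, and SAMD9L is higher with doxycycline in both lines.

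ISG15, MX1 and BST2 gave narrow intervals around 0 in the dosed against undosed BMI1-shRNA cells. ISG15, a ubiquitin-like modifier among the most inducible interferon targets, had 217.5, 226.4 and 294.9 as the lowest, median and highest dosed signals and 222.4, 231.1 and 263.7 undosed. Its difference was log2 0.02, with a 95% interval from -0.07 to 0.11. MX1, a GTPase that traps viral ribonucleoproteins, differed by 0.01 (interval -0.13 to 0.15), and BST2 by 0.03 (-0.06 to 0.13). None of the 3 was called, and the upper bounds lay between 0.11 and 0.15.

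OAS1, a synthetase of oligoadenylates that activate RNase L, differed by -0.08 (95% interval -0.30 to 0.13), and IFITM1, which hinders viral entry, by 0.11 (-0.03 to 0.26). IFIT3, a partner of IFIT1, differed by -0.23 (-0.40 to -0.06) and IFIT2, whose mean signal was only 14.1, by 0.18 (-0.40 to 0.75). The transcription factors of the pathway gave 0.22 for IRF9 (0.02 to 0.43), 0.10 for IRF1 (-0.03 to 0.23) and 0.09 for IRF7 (-0.15 to 0.32), none of them called. Intervals here are not adjusted for the number of genes. Those of dim genes were wide, from -0.73 to 0.46 for IFI27 and from -0.66 to 0.47 for OAS3, and those of PARP9 (-0.39 to -0.02) and SAMD9 (0.02 to 0.24) left out 0 without a call. Among the 34 genes, 30 had an upper bound under log2 0.5 and 33 under log2 1. The 31 genes that were not called differed by -0.23 (IFIT3) to 0.26 (OASL).

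Interferon genes themselves were near the floor. The probe sets of IFNA2, IFNB1, IFNG, IFNK and IFNE stayed below the array's median on all 42 arrays, with highest signals of 7.5 to 13.9. That of IFNA1 alone reached it on 1 array (highest signal 19.1). A probe set shared by IFNA1 and IFNA13 reached it on 2 (highest signal 22.4). IFNL1, an interferon of the lambda type, was the 1 of 7 ligands bright enough to be tested, with a median signal of 16.6, and it was not called with doxycycline in the BMI1-shRNA line (log2 -0.12).

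Counts for other genes of the pathway stand beside 8.3% of all genes called with doxycycline in the BMI1-shRNA line, 578 higher and 642 lower. Of 6 receptor genes 1 was called (16.7%), IFNAR1, a chain of the type I receptor, which fell by 0.37 ± 0.08 (limma adjusted p = 0.00274). At 24 h its difference was -0.11 and at 32 h -0.26, neither called. At 48 h IFNAR1 had 54, 102.1 and 61.4 in dosed cells and 127.9, 111.5 and 120.9 in undosed cells, without overlap, and fell by 0.74 ± 0.15, 1.66-fold (adjusted p = 0.000666). The doxycycline effect on IFNAR1 over the 3 times differed between the lines by -0.39 ± 0.12, which was not called (adjusted p = 0.0538). Of 13 tested signalling genes 2 were called (15.4%): IRF4, a factor of plasma cell identity, rose by 0.15 ± 0.03 and IRF2, a repressor of interferon targets, fell by 0.32 ± 0.05 (adjusted p = 7.83e-06). IRF2 also fell by 0.34 ± 0.05 in the control-shRNA line (adjusted p = 5.55e-05), where it was the 1 signalling gene called.

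Among 17 tested genes of nucleic acid sensing and handling 2 were called (11.8%): DICER1, which cuts hairpin RNA, rose by 0.19 ± 0.05 and ADAR, which edits double stranded RNA, fell by 0.15 ± 0.04. Of 27 further interferon-stimulated genes 5 were called (18.5%, beside 8.3% of all genes), and these 5 fell. CASP1, the inflammasome protease, fell by 0.35 ± 0.04 (limma adjusted p = 1.39e-07), LAMP3 by 0.31 ± 0.10 and NMI by 0.21 ± 0.03, and the others were EPSTI1 and UBE2L6. CASP1 had 219.7, 250.9 and 301.9 as the lowest, median and highest dosed signals and 299, 317.2 and 349.3 undosed, with 8 of 9 dosed arrays below all undosed ones. Its doxycycline effect differed between the lines by -0.28 ± 0.06 (adjusted p = 0.00409). Of 14 antigen presentation genes 1 was called (7.14%), HLA-C, which fell by 0.18 ± 0.05.

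The lines differed from each other in these genes without doxycycline. Over the mean of 24, 32 and 48 h, 16 of the 34 genes were called between the BMI1-shRNA and the control-shRNA line, 8 higher and 8 lower. The share of 47.1% is near the 43.9% of all genes called, and the median log2 difference was -0.05 beside 0.01 for all genes. The genes called went in both directions with large extremes, from 2.72 for CXCL9 to -3.43 for IFITM1, and chemokines and the membrane protein stood at opposite ends.

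IFITM1 was far lower in the BMI1-shRNA line. Undosed signals there were 146.4, 137.5 and 115.4 at 24 h, 172.2, 164.7 and 135.8 at 32 h and 208.2, 217.6 and 173.8 at 48 h. The control-shRNA line had 1803, 1829 and 1597 at 24 h, 1922, 1845 and 1776 at 32 h and 1890, 1995 and 1472 at 48 h. The groups did not overlap, nor did the 21 arrays of one line overlap the 21 of the other (115.4 to 231 against 1223 to 2327). IFITM1 fell by 3.43 ± 0.07 on the log2 scale, 10.8-fold (limma adjusted p = 8.44e-32), rank 33 of 14704 genes by size. A second probe set, annotated to IFITM2 and IFITM1, differed by -3.95.

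The related IFITM genes shared this direction. IFITM3 had 4.8, 6.6 and 22.4 as the lowest, median and highest undosed signals of the BMI1-shRNA line and 119.5, 156.6 and 208.7 of the control-shRNA line, and it fell by 3.60 ± 0.17 (adjusted p = 3.85e-20). IFITM3 reached the array's median on 3 of the 21 arrays of the BMI1-shRNA line and on all 21 of the control-shRNA line. Its signals in the BMI1-shRNA line were thus near the floor, and the size of its difference is uncertain. IFITM2 had 47.6, 73 and 88.2 in the BMI1-shRNA line and 224, 258.6 and 301.5 in the control-shRNA line, and it fell by 1.88 ± 0.10. The IFITM genes are close copies, and their probe sets may read each other's transcripts, so their separate values are uncertain.

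CXCL9 differed the other way. Undosed BMI1-shRNA cells had 645.3, 628.2 and 628.6 at 24 h, 643.7, 546.4 and 570.9 at 32 h and 666.2, 681.4 and 717.7 at 48 h. Undosed control-shRNA cells had 125.3, 103.3 and 90.5 at 24 h, 80.3, 79.9 and 79 at 32 h and 101.4, 88.1 and 89 at 48 h. The lines did not overlap, and CXCL9 was higher by 2.72 ± 0.06, 6.57-fold (limma adjusted p = 1.31e-31). CXCL10 had 303.7, 344.2 and 487 as the lowest, median and highest signals in the BMI1-shRNA line and 170.5, 178.1 and 214.5 in the control-shRNA line, again with no overlap. It was higher by 1.03 ± 0.05, 2.04-fold (adjusted p = 1.34e-20).

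Smaller differences ran both ways within the antiviral families. ISG20 had 123.7, 160.3 and 174 as the lowest, median and highest signals in the BMI1-shRNA line and 70.1, 95.3 and 104.9 in the control-shRNA line, a rise of 0.72 ± 0.07. MX1 rose by 0.53 ± 0.07, OAS1 by 0.61 ± 0.10 and XAF1, a cell death factor, by 0.65 ± 0.15. The pair of neighbouring ubiquitin ligase genes HERC5 and HERC6 fell. HERC5, which attaches ISG15 to newly made proteins, had 47.4, 54 and 85.7 in the BMI1-shRNA line and 95.9, 120.3 and 130.7 in the control-shRNA line and fell by 0.88 ± 0.12 (limma adjusted p = 1.53e-07). HERC6 fell by 0.60 ± 0.19, IFI6 by 0.42 ± 0.10 and OASL by 0.41 ± 0.13.

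The other called genes changed by log2 0.25 or less in size: ISG15 rose by 0.24 and SAMD9 by 0.16, while IFI35 fell by 0.15 and SAMD9L by 0.14. BST2, IRF1, IRF7, IRF9, IFIT1, IFIT2 and IFIT3 were not called, with differences of -0.41 (IFIT2) to 0.15 (IRF7). The SAMD9 call was lost without undosed control-shRNA replicate 2 of 24 h (adjusted p = 0.0506). IFI27 is counted among the 16 called genes, but it reached the array's median on 1 array of the BMI1-shRNA line and 16 of the control-shRNA line, so it was tested only because of the line where it is high and its difference of -0.77 is a description. That call was also lost with a pseudocount of 1 and without any one of 7 of the 18 arrays, with values of -1.04 to -0.46. The 7 were undosed BMI1-shRNA replicates 3 at 24 h, 2 at 32 h and 3 at 48 h, and undosed control-shRNA replicates 1 at 24 h, 1 and 2 at 32 h and 1 at 48 h. IFIT2 and IFI44 also met the filter through the control-shRNA line alone, and neither was called.

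With doxycycline the lines differed in 18 of the 34 genes, 10 higher and 8 lower, with 46.2% of all genes called. CXCL9 had 603.2, 665.5 and 802.2 as the lowest, median and highest dosed signals in the BMI1-shRNA line and 79.4, 107.4 and 121.2 in the control-shRNA line, a difference of 2.64 ± 0.06. IFITM1 had 136.5, 167.2 and 231 in the BMI1-shRNA line and 1223, 1790 and 2327 in the control-shRNA line, a difference of -3.32 ± 0.07. The next highest log2 differences were 0.93 for CXCL10, 0.68 for XAF1, 0.57 for MX1, 0.57 for ISG20 and 0.52 for OAS1. The next lowest were -0.95 for IFI27, -0.88 for HERC5, -0.45 for IFI6, -0.28 for PARP9, which takes part in antiviral ubiquitin signalling, and -0.19 for IFIH1. The calls of PARP9 and IFIH1 were lost when the probe sets of a gene were averaged (limma adjusted p = 0.614 and 0.304). IFI27 is counted here and at 0 h, but it was tested only because of the control-shRNA line, where it is high. Its differences in both comparisons are therefore descriptions. At 0 h 10 of the 34 genes were called, 4 higher and 6 lower, with 28.3% of all genes called, a comparison that rests on the arrays with conflicting labels. There IFITM1 had 135.1, 169.9 and 189.7 in the BMI1-shRNA line and 2071, 1680 and 2008 in the control-shRNA line. CXCL9 was higher there by 1.80 ± 0.10, ISG20 by 0.40 ± 0.13, CXCL10 by 0.37 ± 0.08 and ISG15 by 0.31 ± 0.08. The genes below 0 besides IFITM1 were OAS3, IFI27, HERC6, HERC5 and IFI6, at log2 differences of -1.56 (OAS3) to -0.81 (IFI6). The ISG20 call was lost without BMI1-shRNA replicate 2 or control-shRNA replicate 1 or 2, and that of IFI27 without BMI1-shRNA replicate 1 or 2 or control-shRNA replicate 1. That of HERC6 was lost without BMI1-shRNA replicate 1 or control-shRNA replicate 2, and OAS3 ranged from -2.76 to -0.74 over the settings and left-out arrays. By IFITM1, those 0 h arrays lay inside the range of the BMI1-shRNA line.

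**Figure D4:**
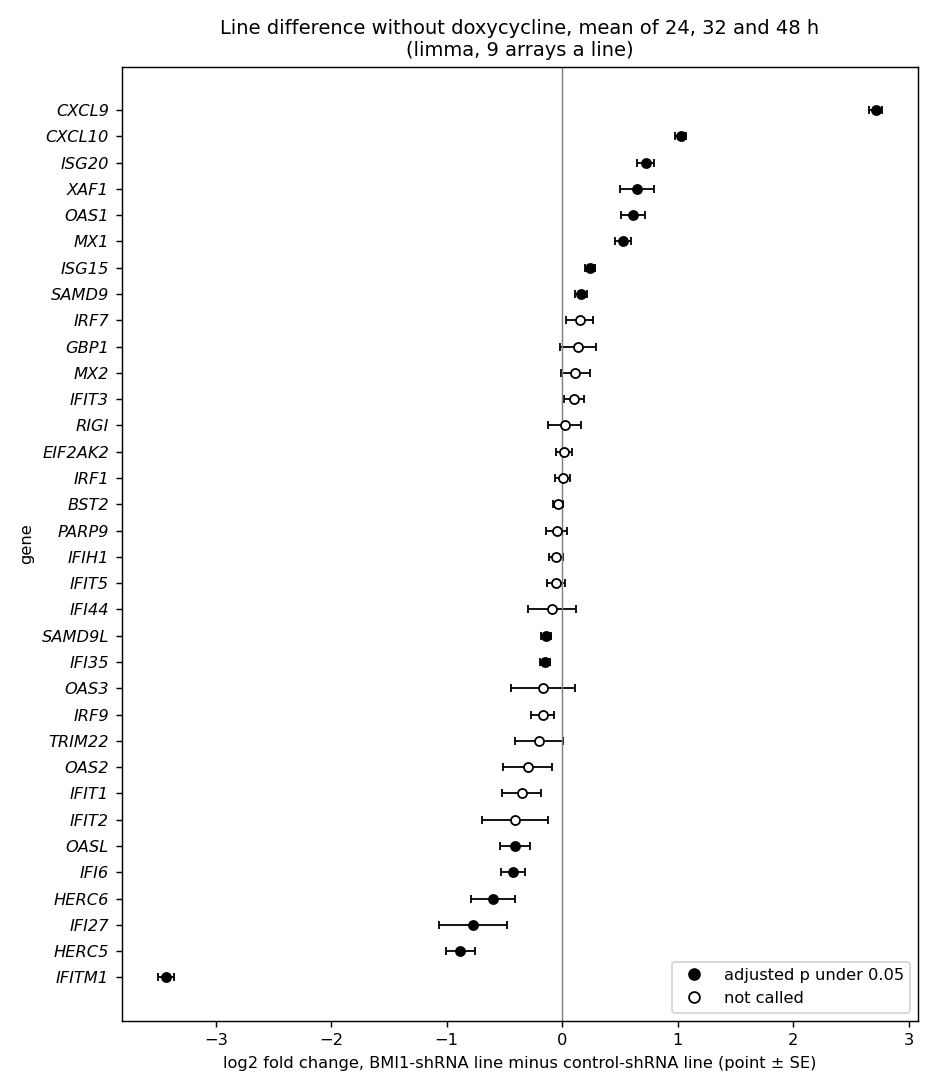
Log2 fold change ± SE of the 34 genes, undosed BMI1-shRNA line minus undosed control-shRNA line over the mean of 24, 32 and 48 h (9 arrays a line); filled points are called at an adjusted p under 0.05. CXCL9 at 2.72 and IFITM1 at -3.43 stand at the ends, with 16 filled points among the 34.

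The wider pathway also differed between the undosed lines in both directions, in a comparison where 43.9% of all genes were called. Of 6 receptor genes 4 were called, with IFNLR1 lower by 1.15 ± 0.30, IFNAR1 lower by 0.50 ± 0.08 and IL10RB higher by 0.33 ± 0.06. IFNLR1 was dim, with a mean signal of 15.6, and among the single undosed times it was called at 24 h alone. Between the dosed lines IFNLR1 differed by -0.25 and was not called (limma adjusted p = 0.541). IFNLR1 and IL10RB are the chains of the receptor for lambda interferons. Of 13 signalling genes 5 were higher and 3 lower, with log2 differences of -0.55 for PTPN6, -0.52 for PIAS1 and 0.46 for IRF8. Of 17 sensing genes 3 were higher and 5 lower. AIM2, a sensor of cytosolic DNA, fell by 1.29 ± 0.12, STING1, the adaptor of the cGAS pathway, fell by 1.06 ± 0.07, and MAVS, the adaptor of the RIG-I-like sensors, rose by 0.82 ± 0.06 (limma adjusted p = 1.41e-14).

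Of 27 further interferon-stimulated genes 9 were higher and 7 lower. Beside IFITM3 and IFITM2, the largest was CCL5, a chemokine for T cells, which fell by 1.18 ± 0.11, opposite in sign to CXCL9 and CXCL10. Of 14 antigen presentation genes 2 were higher and 7 lower, with HLA-F at -0.53, HLA-E at -0.35 and PSMB8 at -0.30. In each of these lists the share called is to be read beside the 43.9% of all genes called in the comparison.

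Of the markers of other blood cells bright enough to be tested, MS4A1 and CLEC4C were higher in the undosed BMI1-shRNA line, and PAX5, CD22, CD3E, CD2 and CSF1R were not called. Summed signals of the 3 B cell markers with a probe set were 127 to 198 in the BMI1-shRNA line and 48.7 to 105 in the control-shRNA line. MS4A1, which encodes CD20, had 82.9, 107 and 137 as its lowest, median and highest signals in the BMI1-shRNA line and 12.6, 17.2 and 26.9 in the control-shRNA line, while PAX5 had a median of 35.9 in the BMI1-shRNA line and 38.6 in the control-shRNA line. Summed signals of the 4 monocyte and dendritic cell markers were 30.5 to 76.8 in the BMI1-shRNA line. They were 18.8 to 50.2 in the control-shRNA line, and CD14 and LYZ were below the array's median on every array. CLEC4C reached the array's median on 5 arrays of the BMI1-shRNA line and 0 of the control-shRNA line. It was thus tested only because of the line where it is high, and its difference of 0.99 is a description. CD3E and CD2, markers of T and NK cells, differed by -0.10 and 0.06. The ratio of GAPDH probe sets at the 3′ and 5′ ends, a sign of RNA quality, averaged 0.935 ± 0.025 in the BMI1-shRNA line and 1.03 ± 0.04 in the control-shRNA line (SD, n = 21 each). Their part in the line differences was not tested. In bulk RNA, fewer cells of a kind and less RNA per cell cannot be told apart, and each hairpin had 1 line, so hairpin and line cannot be told apart either.

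The chemokines dropped in the control-shRNA line between 0 h and the later times. CXCL9 had 101.4, 88.1 and 89 at 48 h without doxycycline, against 214.9, 224.8 and 214.4 at 0 h. It fell by 1.19 ± 0.10 (limma adjusted p = 8.08e-11), and at 24 h it had already fallen by 1.01 ± 0.10. CXCL10 had 214.5, 178.1 and 182.4 at 48 h, against 318.6, 326.5 and 329.4 at 0 h, and fell by 0.75 ± 0.08 (adjusted p = 3.19e-08), and by 0.83 ± 0.08 at 24 h. For both genes all later undosed arrays lay below the 0 h arrays.

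At 48 h against 0 h in the undosed control-shRNA line 7 of the 34 genes were called, with 5.05% of all genes called. Besides the chemokines, IFIH1, the RNA sensor MDA5, fell by 0.34 ± 0.10, while ISG15 rose by 0.34 ± 0.08, IRF9 by 0.59 ± 0.17, IFI35 by 0.25 ± 0.07 and SAMD9L by 0.24 ± 0.07. ISG15 had 229.3, 181.3 and 193.1 at 48 h, against 161.3, 154.3 and 156.6 at 0 h. Leaving out single arrays left 3 to 5 of these 7 genes called: 3 without replicate 1 or 3 of 48 h or replicate 1 of 0 h, and 4 without replicate 2 or 3 of 0 h. The IFIH1 call was lost without any one of the 6 arrays and in 5 of 10 other settings (adjusted p up to 0.137), while both chemokines were called in each of these. At 24 h against 0 h 3 genes were called (1.41% of all genes), the chemokines lower and ISG15 higher by 0.38 ± 0.08.

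In the undosed BMI1-shRNA line IFIT3, ISG15, ISG20 and OAS3 were higher at 48 h than at 0 h. These were 4 of the 34 genes, with 4.47% of all genes called, and the median log2 change of the list was 0.27 beside 0.03 for all genes. IFIT3 had 142.1, 162.2 and 154.4 at 48 h, against 89.7, 107.1 and 76.2 at 0 h, with no overlap. It rose by 0.73 ± 0.15 (limma adjusted p = 0.00212). ISG15 had 263.7, 246.4 and 248.5 at 48 h, against 187.4, 200.6 and 202.7 at 0 h, and rose by 0.35 ± 0.08. ISG20 rose by 0.48 ± 0.13 and OAS3 by 1.77 ± 0.48, where OAS3 had signals of only 17.4, 25.7 and 14.6 at 48 h, against 0.7, 0.6 and 4.4 at 0 h. This comparison rests on the arrays with conflicting labels, and the calls of ISG20 and OAS3 were both lost without replicate 1 of 0 h or replicate 1 or 2 of 48 h. That of ISG20 was also lost without replicate 3 of 0 h, and that of OAS3 without replicate 2 of 0 h.

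CXCL10 followed another course in this line. It had 345.6, 303.7 and 344.2 at 24 h and 457.1, 472.2 and 487 at 48 h, with 424.8, 442.2 and 400 at 0 h. It fell by 0.35 ± 0.08 at 24 h against 0 h as the 1 gene of the list that was called there (1.73% of all genes). That comparison uses the arrays with conflicting labels, and its call was lost without replicate 1 or 2 of 0 h or replicate 2 of 24 h. CXCL10 rose by 0.51 ± 0.08 at 48 h against 24 h (limma adjusted p = 0.00112). In the step from 24 to 48 h, which does not use the 0 h arrays, 2 of the 34 genes were called (0.952% of all genes). The other was IFITM1, which had 208.2, 217.6 and 173.8 at 48 h, against 146.4, 137.5 and 115.4 at 24 h, and rose by 0.57 ± 0.12 (adjusted p = 0.015). That call was lost without replicate 3 of 24 h or replicate 1 or 2 of 48 h.

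Dosed BMI1-shRNA cells gave a separate set of arrays for the step from 24 to 48 h. There 2 of the 34 genes were called, both higher, with 2.15% of all genes called. IFITM1 had 205.8, 208.6 and 231 at 48 h, against 155, 148.1 and 136.5 at 24 h, and rose by 0.54 ± 0.12 (limma adjusted p = 0.00989). ISG15 had 294.9, 276.3 and 262.9 at 48 h, against 226.4, 217.5 and 223.8 at 24 h, and rose by 0.31 ± 0.08 (adjusted p = 0.0183). Neither pair of groups overlapped. The IFITM1 call was lost without replicate 3 of either time, and the ISG15 call without replicate 2 or 3 of 24 h or replicate 1 or 2 of 48 h. IFITM1 stayed far below the control-shRNA line throughout.

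In the control-shRNA line the step from 24 to 48 h showed little of this. Without doxycycline limma called none of the 34 genes, with 0.843% of all genes called. At an unadjusted limma p under 0.05 there were 6 of the 34, beside 12.2% of all genes. With doxycycline SAMD9L alone was called (0.32% of all genes), with 317.4, 348.2 and 342.4 at 48 h, against 248.4, 258.4 and 285.6 at 24 h, a rise of 0.34 ± 0.07. That call was lost without replicate 1 or 2 of 24 h or replicate 2 or 3 of 48 h. The test of the difference between lines in the undosed step from 24 to 48 h called none of the 34 genes, with 0% of all genes called. At an unadjusted limma p under 0.05 there were 7 of the 34 genes, beside 8.19% of all genes. A change over time that differs between the lines was thus not shown for that step.

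The difference between lines in the undosed step from 0 to 48 h was called for 2 of the 34 genes, with 0.143% of all genes called. CXCL9 had a step of -0.16 ± 0.10 in the BMI1-shRNA line and -1.19 ± 0.10 in the control-shRNA line, a difference of 1.03 ± 0.14 (limma adjusted p = 5.21e-05). CXCL10 had a step of 0.16 ± 0.08 in the BMI1-shRNA line and -0.75 ± 0.08 in the control-shRNA line, a difference of 0.91 ± 0.12 (adjusted p = 1.98e-05). Both rest on the arrays with conflicting labels. The median difference over the list was 0.29 beside 0.02 for all genes.

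**Figure D5:**
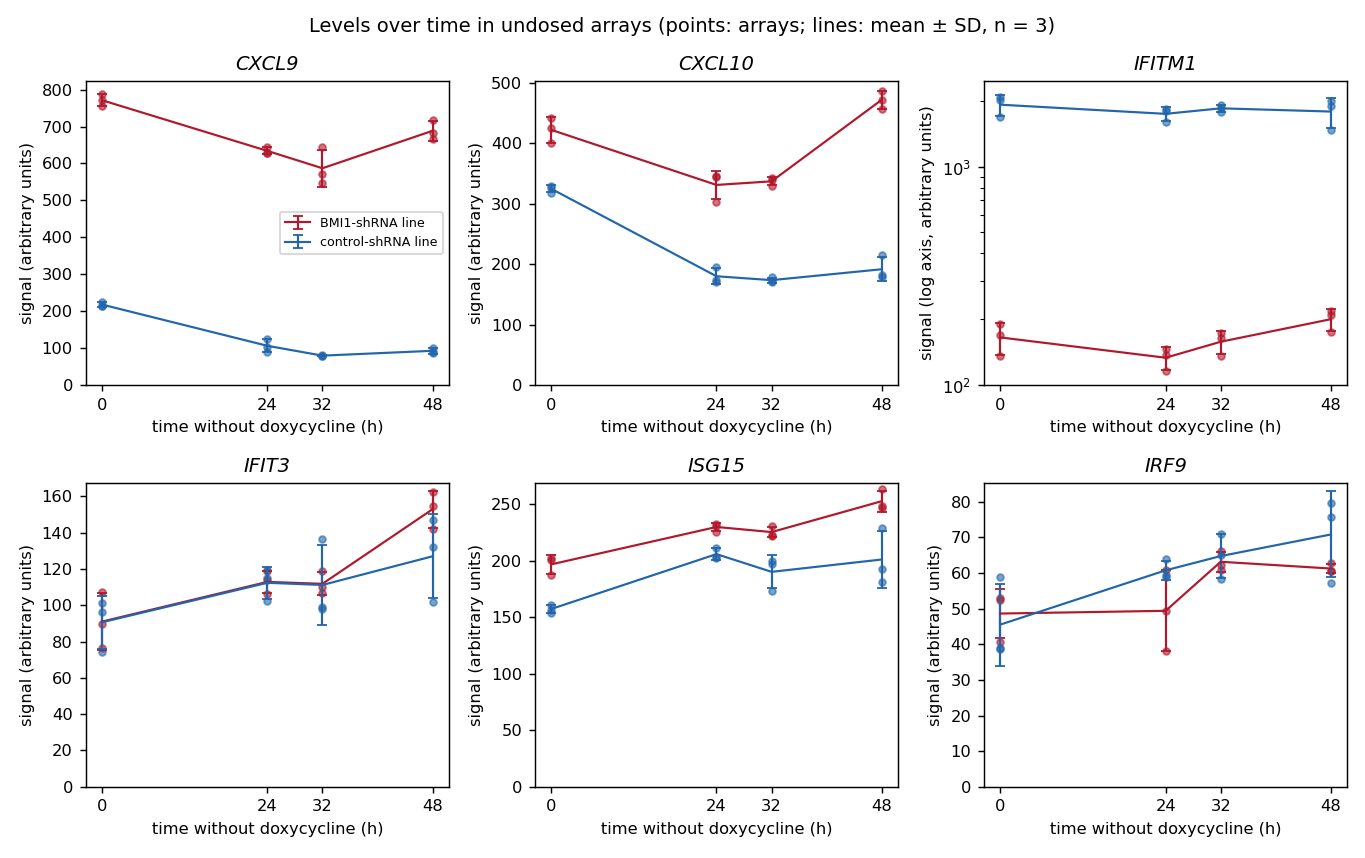
Signals over time in undosed cells of the BMI1-shRNA line (red) and the control-shRNA line (blue) for CXCL9, CXCL10, IFITM1, IFIT3, ISG15 and IRF9; points are arrays, lines join means with SD (n = 3), and the IFITM1 axis is logarithmic while the others start at 0. CXCL9 and CXCL10 drop after 0 h in the control-shRNA line, every IFITM1 array of the BMI1-shRNA line lies below every one of the control-shRNA line, and IFIT3 and ISG15 are higher at 48 h than at 0 h in the BMI1-shRNA line.

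Agreement among the probe sets of a gene was read as a check. The 40 symbols had 69 probe sets, 67 with that symbol alone and 2 with several symbols, and 20 genes had several probe sets. The 3 probe sets of SAMD9L differed with doxycycline by 0.35, 0.11 and 0.27 in the BMI1-shRNA line and by 0.30, 0.39 and 0.30 in the control-shRNA line. Both ISG20 probe sets were lower with doxycycline in the BMI1-shRNA line (-0.23 and -0.48) and higher in the BMI1-shRNA than in the control-shRNA line (0.72 and 1.81). IFIT1, CXCL9 and CXCL10 had 1 probe set each. The dimmer IFIT3 probe set differed with doxycycline by 0.02, against -0.23 for the brighter one. Not all genes agreed in sign. Between undosed lines the 2 PARP9 probe sets differed by -0.05 (the brighter) and 0.27. With doxycycline in the BMI1-shRNA line the 3 RIGI probe sets differed by 0.125 (the brightest), -0.26 and -0.38. PARP9 and RIGI were not called in these comparisons.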

How the data were processed

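Messenger RNA was measured on 42 one-colour Affymetrix U133 Plus 2 arrays in 14 groups of 3, grouped by the sample titles. The deposited values are linear intensity signals per probe set made with MAS5, per the submitters' processing notes, which give no version. Their mean after trimming 2% at each end was 150 on each array, so each array was scaled to a common target. Control probe sets (62 of 54675) were not used. A filter on dim signals kept probe sets that reached the median of the array on at least 3 arrays. Values were transformed as log2(signal + 5.4), the added value being the 25th percentile. The brightest kept probe set of a single symbol stood for each of 14704 genes. Symbols came from the platform annotation, updated by RefSeq gene identifiers, so DDX58 appears as RIGI.

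The limma package (version 3.58.1, R 4.3.3) fitted a single linear model with a mean for each of the 14 groups (eBayes with an intensity trend, 28 residual degrees of freedom), with two-sided tests and Benjamini-Hochberg adjustment over all genes. Intervals of 95% used the same fit. The model was tested on simulated data. The members, the further lists and the naming rule were chosen with earlier results of these data known. By that rule, all called genes are named, or the 6 highest and 6 lowest where over 12 were called, beside a fixed set, and up to 3 further pathway genes per list. Comparisons of a line share their arrays. Alternatives were other pseudocounts, quantile normalization, no filter or a stricter one, other probe set rules, no trend, smaller fits, a replicate block and leaving out arrays.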

Additional observations from a re-analysis of the deposited data

Results flagged for a closer look

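The undosed step from 0 to 48 h differed between the lines for CXCL9 and CXCL10, by the limma test of the difference itself. For CXCL9 the step in the BMI1-shRNA line minus that in the control-shRNA line was 1.03 on the log2 scale, with all 3 arrays of the control-shRNA line at 48 h below all 3 at 0 h. For CXCL10 it was 0.91, again with every control-shRNA array at 48 h below those at 0 h. Both differences use the BMI1-shRNA arrays at 0 h whose labels conflict. Over the step from 24 to 48 h, which does not use them, the differences were 0.29 ± 0.14 for CXCL9 (limma adjusted p = 0.602) and 0.42 ± 0.11 for CXCL10 (adjusted p = 0.314).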

How the results depend on the processing

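Over the settings tried, the calls over the mean of 24, 32 and 48 h of IFIT1 and SAMD9L for doxycycline in the BMI1-shRNA line, of SAMD9L in the control-shRNA line and of CXCL9, CXCL10 and IFITM1 between the lines, and of CXCL9 and CXCL10 for the difference of the 0 to 48 h steps were kept, also without any single array. Of 75 calls of a gene in a comparison, 49 were kept in every other setting and 52 without every single array. One value reversed: EIF2AK2 between dosed lines, -0.17 with the brightest probe set, was 0.0682 when all probe sets of a gene were averaged, and was then not called. The same averaging also lost the calls of IFIH1, IRF1, PARP9 and RIGI between dosed lines. Between undosed lines, 11 to 18 genes were called over the other settings, beside 16 in the main one. Several counts of called genes moved by over 1.5 times. With no filter, the control-shRNA line had 4 genes at 48 h against 0 h. With only the groups of the comparison fitted, it had 2, the BMI1-shRNA line had 2 at 48 h against 0 h and 1 at 48 h against 24 h. The single IFIT1 call at 24 h of doxycycline in the BMI1-shRNA line was lost in 4 of 10 settings, its SAMD9L call at 32 h in 2 of 11 and the SAMD9L call at 48 h of doxycycline in the control-shRNA line in 3 of 11. With only the groups fitted, 1 of 2 genes was lost at 48 h of doxycycline in the BMI1-shRNA line (CXCL10) and in its dosed step from 24 to 48 h (ISG15), and the 1 gene in that step of the control-shRNA line (SAMD9L). Fewer arrays then estimate the variance, and otherwise the cause was not tested. Leaving out 1 array in turn gave, newly called genes included, 3 to 6 genes for the control-shRNA line at 48 h against 0 h, 2 to 4 for the BMI1-shRNA line at 48 h against 0 h, 1 to 2 for its step from 24 to 48 h, 2 to 3 for doxycycline in it, 15 to 17 for the undosed line difference and 2 throughout for the difference of the 0 to 48 h steps. Replicate numbers did not pair the arrays: deviations of same-numbered arrays correlated at a mean r of 0.0019. With the replicate block, 2 genes were called for doxycycline in the BMI1-shRNA line, ISG20 being lost, and 16 between undosed lines. A total of 12 of the 34 genes had mean signals under 50, which limits what small changes could be seen in them.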
